A study of Mus musculus with 4 samples.

Results

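The genes described here encode the BCL2 family, the proteins that set whether the outer mitochondrial membrane is breached in cell death, in osteocyte cultures of PPARα-deficient and wild-type mice. Members were taken by their symbols: Bcl2, Bcl2l1, Mcl1, Bax, Bak1, Bid, Bmf, Bnip3, Bbc3 and Bcl2l11. The rule used none of their values, but the members were chosen with earlier results of these data known. They are 10 of the 37411 genes in the authors' table of counts, and all 10 were among the 13571 genes with enough counts to be tested (the filterByExpr rule of edgeR, with a minimum count of 10).

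BAX and BAK1 form pores in the outer mitochondrial membrane, which let cytochrome c reach the cytosol and start the caspases. BCL2, BCL-XL (encoded by Bcl2l1) and MCL1 hold them in check by binding a short helix, the BH3 domain, which all these proteins carry, and the BH3-only proteins BID, BMF, PUMA (encoded by Bbc3) and BIM (encoded by Bcl2l11) free or activate the pore formers. BNIP3, an atypical BH3-only protein of the same membrane, also tethers mitochondria to the autophagy machinery and is induced by low oxygen. Osteocytes are long-lived cells buried in mineralized bone, whose death is a known trigger of bone resorption.

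RNA of 4 libraries was sequenced, 2 of αKO and 2 of WT cultures. The αKO mice lack functional PPARα, the nuclear receptor that drives genes of fatty acid oxidation, in all tissues, since a NeoR cassette replaces coding sequence of exon 8. Per the labels, all mice were C57BL/6 and 5 months old, and the osteocyte-enriched fraction of collagenase-digested femur was grown ex vivo for 6 days with no treatment. The methods of the study give an older age and a longer growth for both genotypes and the background 129S4/SvJae for the αKO mice, and the authors' own comparison names DMSO for both genotypes. No source used here gives the sex of these mice or says whether a library came from 1 animal or from several, so that p-values measure only the spread between these libraries.

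To show the feature that defines the family, the stretch of 48 bases that codes for the core of the BH3 domain was read from the GRCm38 genome in each member's principal GENCODE M21 transcript. The capitals mark 6 codons, for leucine, any 3 residues, a small residue and aspartate. The sequences are given 5′ to 3′ in the direction of the gene.
Bcl2, chr1:106712566-106712613, minus strand: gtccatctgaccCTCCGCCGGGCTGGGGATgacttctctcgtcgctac
Bcl2l1, chr2:152829688-152829735, minus strand: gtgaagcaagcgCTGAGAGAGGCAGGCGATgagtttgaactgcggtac
Mcl1, chr3:95659424-95659471, plus strand: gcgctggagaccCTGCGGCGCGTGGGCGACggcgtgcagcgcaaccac
Bax, chr7:45465988-45466035, minus strand: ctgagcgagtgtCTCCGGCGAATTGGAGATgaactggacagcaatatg
Bak1, chr17:27022522-27022569, minus strand: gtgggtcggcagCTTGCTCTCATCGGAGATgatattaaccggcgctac
Bid, chr6:120897280-120897327, minus strand: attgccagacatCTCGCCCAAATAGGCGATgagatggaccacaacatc
Bmf, chr2:118545091-118545138, minus strand: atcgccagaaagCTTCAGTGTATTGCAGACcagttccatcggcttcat
Bnip3, chr7:138894636-138894683, minus strand: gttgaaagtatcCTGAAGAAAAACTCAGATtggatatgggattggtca
Bbc3, chr7:16313761-16313808, plus strand: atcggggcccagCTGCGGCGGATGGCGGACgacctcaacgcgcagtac
Bcl2l11, chr2:128147138-128147185, plus strand: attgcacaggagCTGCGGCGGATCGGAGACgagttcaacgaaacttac

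The pattern was found once in the coding sequence of each of these 10 principal transcripts and lay within 1 coding exon in each. Among all coding transcripts of a gene it was in 1 of 3 of Bbc3, 1 of 2 of Bid, 3 of 5 of Bax, 7 of 8 of Bcl2l1 and 4 of 5 of Bcl2l11, and in all of those of the other members, and the gene-level values do not separate them. The fifth codon is for glycine in 7 members, for alanine in Bmf and Bbc3 and for serine in Bnip3. Inhibitors, pore formers and BH3-only members thus share the pattern, which was written to admit each of these residues at the fifth codon. How often it occurs in other proteins was not counted.

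Library totals were 27496137 and 25136628 counts for αKO, and 25462028 and 25687940 counts for WT (replicate 1 and then replicate 2, as for all values of single libraries). Ppara was at 15 and 9 counts in αKO and at 16 and 13 counts in WT cultures, and gene-level counts do not separate the exon carrying the cassette from the rest of the gene, so they do not check the genotype. Of the osteocyte markers, Sost and Fgf23 had 0 counts in all libraries, which allows up to 3 counts in each. The 10 markers summed to 898 and 965 CPM (counts scaled to the size of the library) in αKO and 655 and 785 CPM in WT cultures. Most of each sum was Capg, at 814 and 909 CPM in αKO and 421 and 515 CPM in WT cultures. Of the 7 markers that could be tested, 5 had a log2 fold change below 0 and 2, Capg among them, above 0, with a median of -1.41. In edgeR's test, 3 were lower and 1 was higher at an unadjusted p under 0.05, beside 2.59% and 2.81% of all genes. All 24 macrophage markers were detected, and their summed level was 37768 and 33385 CPM in αKO cultures, against 26111 and 16190 CPM in WT cultures. All 24 had a log2 fold change above 0, as did 49.2% of the genes tested, with a median of 0.89. Of these markers, 7 were higher at an unadjusted p under 0.05 in edgeR's test, beside 2.81% of all genes. In 20 of them both αKO libraries lay above both WT libraries, as in 17.1% of all genes. The osteoblast markers summed to 26682 and 24019 CPM in αKO and to 27830 and 28244 CPM in WT cultures, and 13 of the 14 had a log2 fold change below 0, with a median of -1.13. At an unadjusted p under 0.05 in edgeR's test, 5 of them were lower, beside 2.59% of all genes. In 7 of them both αKO libraries lay below both WT libraries, as in 16% of all genes. These were thus cultures of several cell types, and the part of this in the values of the members was not tested. In such bulk samples a shift in the number of cells of a type and a shift in RNA per cell cannot be told apart.

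Levels were compared between genes on the scale of the authors' TPM, which divides the counts by gene length and scales each library to the same sum. Bax was the most abundant member, with a mean of 438 TPM over the 4 libraries, above 97.6% of the genes tested, followed by Mcl1 at 312 TPM, above 96.3%. Bak1 averaged 146 TPM, Bid 101 TPM, Bcl2l1 76.0 TPM and Bnip3 53.8 TPM. Bbc3 and Bcl2l11 were lower, at 18.2 and 14.4 TPM, and Bcl2 and Bmf lowest, at 5.18 and 2.60 TPM, so that the gene after which the family is named lay above only 24.9% of the genes tested. The replicates of WT Bax lay further apart than the means of Bax and Mcl1, and the libraries of Bbc3 and Bcl2l11 overlapped, so that these neighbours do not differ beyond their spread.

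**Figure D1:**
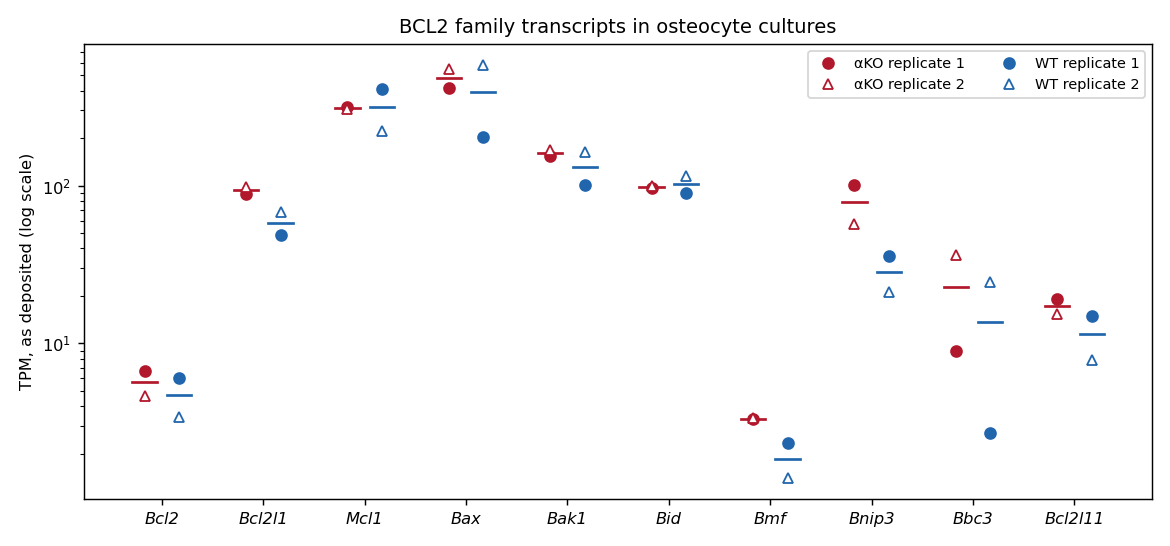
TPM of the 10 members on a log scale, with αKO libraries in red and WT libraries in blue. Circles are replicate 1, triangles replicate 2 and bars the mean of 2 libraries. Both αKO points lie above both WT points for Bcl2l1, Bmf, Bnip3 and Bcl2l11, and the WT replicates of Bax (204 and 583 TPM) and Bbc3 (2.71 and 24.4 TPM) are far apart.

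Summed by role, the inhibitors Bcl2, Bcl2l1 and Mcl1 came to 408 and 408 TPM in αKO and to 463 and 292 TPM in WT cultures. Bax and Bak1 came to 571 and 715 TPM in αKO and to 305 and 745 TPM in WT cultures, and the BH3-only members Bid, Bmf, Bbc3 and Bcl2l11 to 128 and 155 TPM in αKO and 110 and 149 TPM in WT cultures. For the inhibitors and the pore formers, both αKO libraries lay between the WT libraries, and for the BH3-only members the groups overlapped. The ratio of inhibitor to pore-former transcripts was 0.716 and 0.571 in αKO cultures and 1.52 and 0.392 in WT cultures. WT replicate 1 alone had more inhibitor than pore-former transcripts, and the αKO ratios again lay between those of WT.

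**Figure D2:**
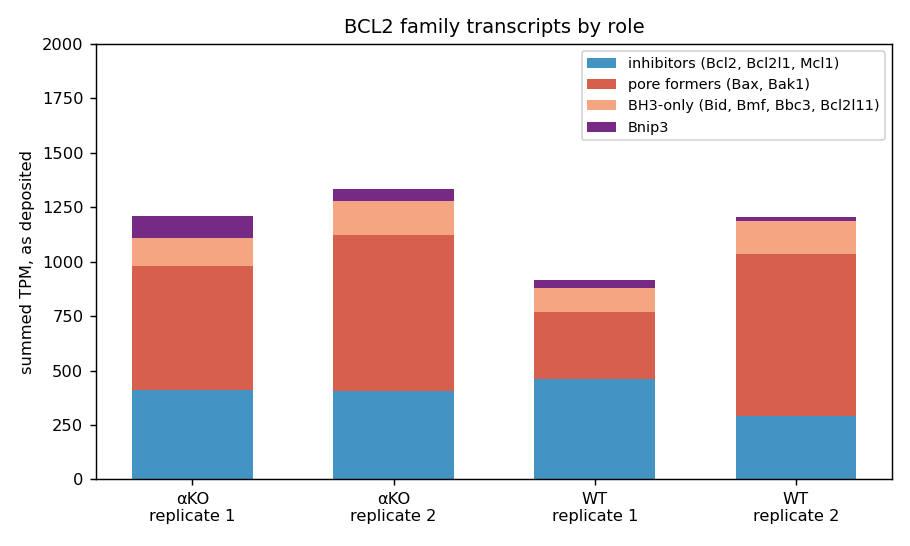
Summed TPM of the members by role in each library, αKO left and WT right. The total of the 10 members was 1209 and 1336 TPM in αKO and 914 and 1208 TPM in WT libraries, and the segment of Bax and Bak1 is smallest in WT replicate 1.

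Within the inhibitors, Mcl1 made up 76.6% and 74.7% of the transcripts in αKO and 88.2% and 75.6% in WT cultures. Bcl2l1 made up 21.8% and 24.1% in αKO and 10.5% and 23.3% in WT cultures, while Bcl2 stayed between 1.14% and 1.64% in all libraries. Mcl1 thus carried most of the inhibitor transcript in each library. Within the BH3-only members, Bid had the largest share, with 75.4% and 64.4% in αKO and 81.7% and 77.4% in WT cultures, a lower share in both αKO libraries than in either WT library. These shares are descriptions with no test.

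Whether loss of PPARα was accompanied by a different level of these transcripts was asked by the comparison of αKO with WT over all genes, by edgeR's quasi-likelihood test with Benjamini-Hochberg adjustment. None of the 10 members passed an adjusted p of 0.05, and neither did any other gene (0% of 13571). All 10 had a log2 fold change above 0, as did 49.2% of the genes tested. Their median was 0.62, beside -0.0083 for the whole set tested. The smallest adjusted p of any gene was 0.902, and 732 genes were under an unadjusted p of 0.05. DESeq2 called 50 genes and edgeR's likelihood ratio test 28, with no member among them. At an unadjusted p under 0.05, 1 member was higher in αKO cultures, Bnip3, beside 2.81% of all genes, and no member was lower, beside 2.59% of all genes. In 4 members, Bcl2l1, Bmf, Bnip3 and Bcl2l11, both αKO libraries lay above both WT libraries, as in 17.1% of all genes, and in none did both lie below, as in 16% of all genes. The limits on this are that 2 libraries a group give wide intervals and that the sign of 4 members depends on 1 library, namely of Mcl1, Bax, Bid and Bbc3.

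**Figure D3:**
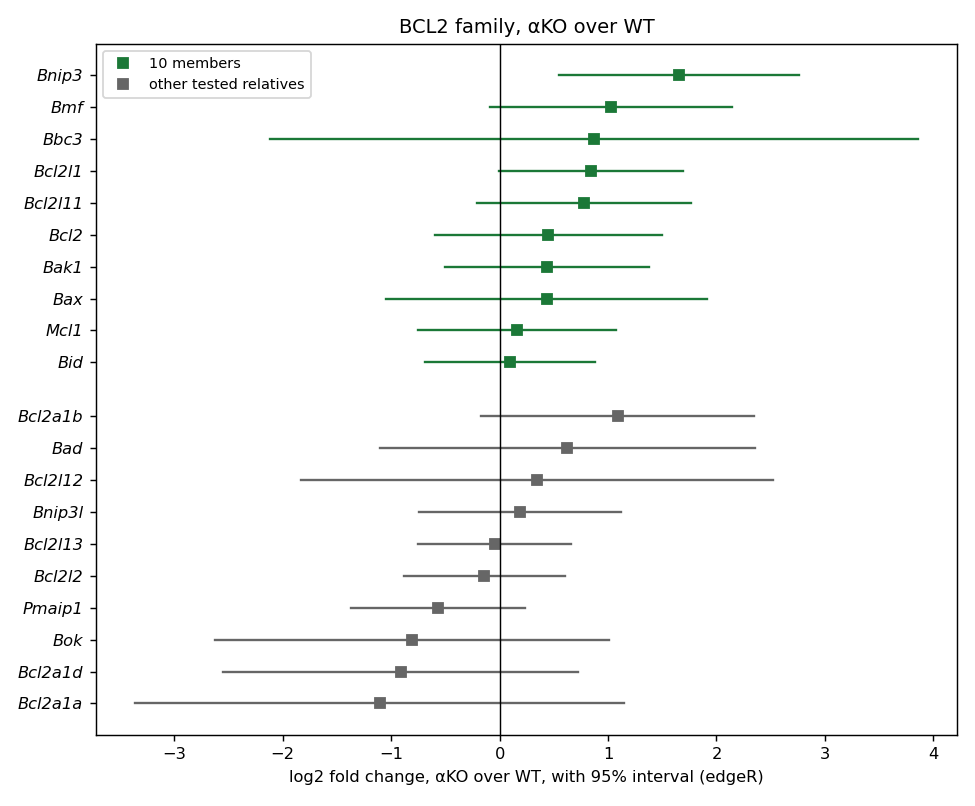
Log2 fold change of αKO over WT with its 95% interval from edgeR, for the 10 members (green) above 10 tested relatives (grey). The interval of Bnip3 alone lies wholly above 0 (0.54 to 2.76), that of Bcl2l1 reaches to 0 (-0.0057 to 1.69), and the estimates of the relatives fall on both sides of 0.

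Of the inhibitors, Bcl2l1 (chromosome 2, 152780668 to 152831728), which encodes BCL-XL, a guardian of the mitochondrial membrane in long-lived cells, had 3921 and 4242 counts in αKO and 1888 and 2810 counts in WT cultures. On the per-length scale this was 88.8 and 98.6 TPM in αKO cultures, against 48.8 and 67.9 TPM in WT cultures. Both αKO libraries were higher than either WT library, and WT replicate 1 was the lowest. The log2 fold change was 0.84 (standard error 0.333, 95% interval -0.0057 to 1.69), with an adjusted p of 0.93 in edgeR's test.

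Mcl1 (chromosome 3, 95658788 to 95663176) encodes a short-lived inhibitor that is lost quickly when protein synthesis stops. It was at 313 and 305 TPM in αKO cultures, against 409 and 220 TPM in WT cultures. The αKO libraries were nearly equal and lay between the WT libraries, and the log2 fold change was 0.16 (95% interval -0.75 to 1.07). Bcl2 (chromosome 1, 106538178 to 106714274) encodes the founding inhibitor of the family. It was at 6.68 and 4.64 TPM in αKO and 6.01 and 3.396 TPM in WT cultures, from 331 to 695 counts. Replicate 1 was the higher library in both genotypes and the groups overlapped, with a log2 fold change of 0.45 (95% interval -0.60 to 1.496).

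Of the pore formers, Bax (chromosome 7, 45461697 to 45466898), which encodes a cytosolic protein that moves to mitochondria when activated, was at 418 and 548 TPM in αKO and 204 and 583 TPM in WT cultures. In counts these were 4122 and 5272 in αKO and 1764 and 5393 in WT cultures. WT replicate 1 was low and WT replicate 2 the highest of all, so that the groups overlapped, with a log2 fold change of 0.43 (95% interval -1.05 to 1.92). Bak1 (chromosome 17, 27019810 to 27029009) encodes the pore former that resides on mitochondria. It was at 153 and 167 TPM in αKO and 101 and 162 TPM in WT cultures, again with WT replicate 1 the lowest. Its log2 fold change was 0.44 (95% interval -0.51 to 1.38). Per Bak1 transcript, Bcl2l1 was at 0.581 and 0.590 in αKO and 0.484 and 0.419 in WT cultures, while per Bax transcript it was at 0.213 and 0.180 in αKO and 0.239 and 0.117 in WT cultures. The groups were separate in the first of these ratios and overlapped in the second. Both ratios were described with no test, and 17.1% of single genes had both αKO libraries above both WT libraries.

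Of the BH3-only members, Bcl2l11 (chromosome 2, 128126038 to 128162547), which encodes BIM, a protein that binds all inhibitors and is needed for the death of many blood cells, had 1505 and 1172 counts in αKO and 1031 and 579 counts in WT cultures. In TPM it was at 19.2 and 15.4 in αKO and 15.0 and 7.89 in WT cultures. Both αKO libraries were higher, though αKO replicate 2 exceeded WT replicate 1 only by a little. The log2 fold change was 0.78 (standard error 0.388, 95% interval -0.21 to 1.77, adjusted p = 0.96 in edgeR's test). Per Mcl1 transcript, Bcl2l11 was at 0.0614 and 0.0503 in αKO and 0.0367 and 0.0358 in WT cultures. The groups did not overlap in this ratio, which was described with no test. Of single genes, 17.1% had both αKO libraries above both WT libraries.

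Bmf (chromosome 2, 118528757 to 118549687) encodes a BH3-only protein that is held at the cytoskeleton and released when cells detach. It was the least abundant member, with 181 and 181 counts in αKO and 112 and 72 counts in WT cultures, or 3.30 and 3.38 TPM in αKO and 2.33 and 1.40 TPM in WT cultures. The αKO libraries were alike and both higher than either WT library. The log2 fold change was 1.03 (standard error 0.439, 95% interval -0.09 to 2.14), which is 2.04-fold, with an adjusted p of 0.932 in edgeR's test.

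Bbc3 (chromosome 7, 16308393 to 16318205) encodes PUMA, a main mediator of cell death downstream of p53. It had 184 and 734 counts in αKO and 49 and 472 counts in WT cultures, or 8.93 and 36.5 TPM in αKO and 2.71 and 24.4 TPM in WT cultures. Replicate 2 was several times higher than replicate 1 in both genotypes, and on the log2 scale the replicates of each genotype lay further apart than the genotypes did. The log2 fold change of 0.87 accordingly had the widest interval of all members, from -2.12 to 3.86. Trp53, which encodes p53, was at 95.3 and 92.4 CPM in αKO and 69.9 and 156 CPM in WT cultures, with a log2 fold change of -0.26. Bid (chromosome 6, 120891930 to 120916853), which encodes the protein that caspase 8 cleaves to link death receptors to mitochondria, was at 96.6 and 100 TPM in αKO and 89.8 and 116 TPM in WT cultures. Both αKO libraries lay between the WT libraries, and the log2 fold change was 0.10 (95% interval -0.69 to 0.88).

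Bnip3 (chromosome 7, 138890836 to 138909519) had the largest fold change of the members with all 4 libraries, though Bbc3 exceeded it without αKO replicate 1 (1.57 for Bbc3 and 1.20 for Bnip3), and both Bbc3 and Bax did without WT replicate 2 (3.28 for Bbc3, 1.45 for Bax and 1.33 for Bnip3). It had 2023 and 1103 counts in αKO and 627 and 394 counts in WT cultures, or 101 and 56.7 TPM in αKO and 35.8 and 21.1 TPM in WT cultures. Both αKO libraries were higher than either WT library, and αKO replicate 1 was the highest of the 4. The log2 fold change was 1.65 (standard error 0.436, 95% interval 0.54 to 2.76), or 3.15-fold, with an adjusted p of 0.902 in edgeR's test. BNIP3L (also NIX), encoded by the related gene Bnip3l, tethers mitochondria in the same way. Bnip3l was at 58.5 and 55.5 TPM in αKO and 75.1 and 39.1 TPM in WT cultures, with a log2 fold change of 0.19. The ratio of Bnip3 to Bnip3l in TPM was thus 1.74 and 1.02 in αKO cultures, against 0.477 and 0.540 in WT cultures, described with no test. In αKO replicate 2 the pair was nearly equal. In counts, Bnip3l was the higher of the pair in both αKO libraries, at 2177 and 2014. Which of the pair was the more abundant in αKO cultures thus depends on the gene lengths used.

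Since Bnip3 is a known target of the hypoxia-inducible factors, its promoter is shown, from 250 bases before to 50 bases after the start of transcription (RefSeq, GRCm38.p6, chr7:138909457-138909756, minus strand, 300 bases). The capitals mark CACGTG, which reads the same on both strands and holds ACGTG, the core of a hypoxia response element, once on each strand.
Bnip3 promoter: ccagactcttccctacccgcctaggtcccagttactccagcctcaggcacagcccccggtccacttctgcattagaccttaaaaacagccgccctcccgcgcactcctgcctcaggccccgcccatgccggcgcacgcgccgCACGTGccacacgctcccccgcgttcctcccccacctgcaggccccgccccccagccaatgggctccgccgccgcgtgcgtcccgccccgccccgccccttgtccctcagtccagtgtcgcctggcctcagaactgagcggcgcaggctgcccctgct

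ACGTG, sought on both strands, was also in the promoters of Bax, Bmf and Bbc3, and so in 4 of the 10 members, and it is in 21.8% of the 27025 genes with such a window. CACGTG was in those of Bax, Bnip3 and Bbc3, beside 8.09% of all genes. AGGTCA, the half-site of nuclear receptors, was in the promoters of Bcl2l1 and Bmf, beside 18.1% of all genes. PPARα binds with its partner RXR to a direct repeat of AGGTCA with 1 base between. An exact match to this repeat was in none of the 10, beside 0.0481% of all genes. At so low a share, its absence from 10 genes says nothing of PPARα binding. The forkhead core TGTTTAC was in the promoters of Bbc3 and Bcl2l11, both known targets of FOXO factors, beside 4.05% of all genes. These are matches of letters, and binding was not measured. Foxo1 had a log2 fold change of -0.50, Foxo3 one of 0.03 and Foxo4 one of 0.32.

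Other genes that low oxygen induces were taken as a list of 15, all of which could be tested. Of these, 12 had a log2 fold change above 0 and 3 below, with a median of 0.71. In 9 of them both αKO libraries lay above both WT libraries, as in 17.1% of all genes. At an unadjusted p under 0.05, 3 were higher and 1 was lower, beside 2.81% and 2.59% of all genes. Ankrd37, an ankyrin repeat gene, was at 4.92 and 1.90 CPM in αKO and 0.412 and 0.423 CPM in WT cultures (log2 fold change 3.01), and Car9, a carbonic anhydrase of the cell surface, at 9.72 and 5.85 CPM in αKO and 3.75 and 2.62 CPM in WT cultures (log2 fold change 1.29). Pdk1, a kinase that restrains pyruvate dehydrogenase, was at 123 and 65.9 CPM in αKO and 46.3 and 15.4 CPM in WT cultures (log2 fold change 1.61). These 3 genes were named for an unadjusted p under 0.05 in edgeR's test. That choice favours groups that do not overlap, so their separation, as in Bnip3, is no further evidence. In them and in Bnip3, αKO replicate 1 was the higher of the αKO pair. In Car9, Pdk1 and Bnip3, WT replicate 1 was likewise the higher of the WT pair (23.5 and 15.2 CPM for Bnip3). The gene that was lower was Bhlhe40, a transcriptional repressor, at a log2 fold change of -0.88. In Vegfa and Adm, with log2 fold changes of -0.28 and -0.18, WT replicate 2 held the highest level. No gene of the list passed the adjusted p of 0.05, and Hif1a, which encodes the oxygen-labile subunit of HIF-1, had a log2 fold change of -0.40.

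Of the 14 genes tested that act with BNIP3 in mitophagy or mitochondrial dynamics, 6 had a log2 fold change above 0 and 8 below, none at an unadjusted p under 0.05, with a median of -0.05. The extremes were Park2, which encodes the ubiquitin ligase parkin, at 1.03 and Optn, an autophagy receptor, at -0.56. Park2 was at a low level, with 1.11 and 2.06 CPM in αKO and 1.20 and 0.346 CPM in WT cultures, and its groups overlapped.

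Leaving out each library in turn showed which values rest on 1 library. Bnip3 stayed above 0, from 1.20 without αKO replicate 1 to 2.03 without WT replicate 1, where its adjusted p was 0.0246 in edgeR's test (0.0246 to 1 over all alternatives). Bcl2l1 stayed between 0.59 and 1.14, Bmf between 0.72 and 1.38, Bcl2l11 between 0.40 and 1.25, Bak1 between 0.11 and 0.87 and Bcl2 between 0.11 and 0.86. The other members changed sign. Bax was at -0.14 without WT replicate 1 and at 1.45 without WT replicate 2, Mcl1 at 0.61 without WT replicate 1 and at -0.20 without WT replicate 2, and Bid at -0.11 without WT replicate 1. Bbc3 was at -0.50 without αKO replicate 2 and at 3.28 without WT replicate 2.

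**Figure D4:**
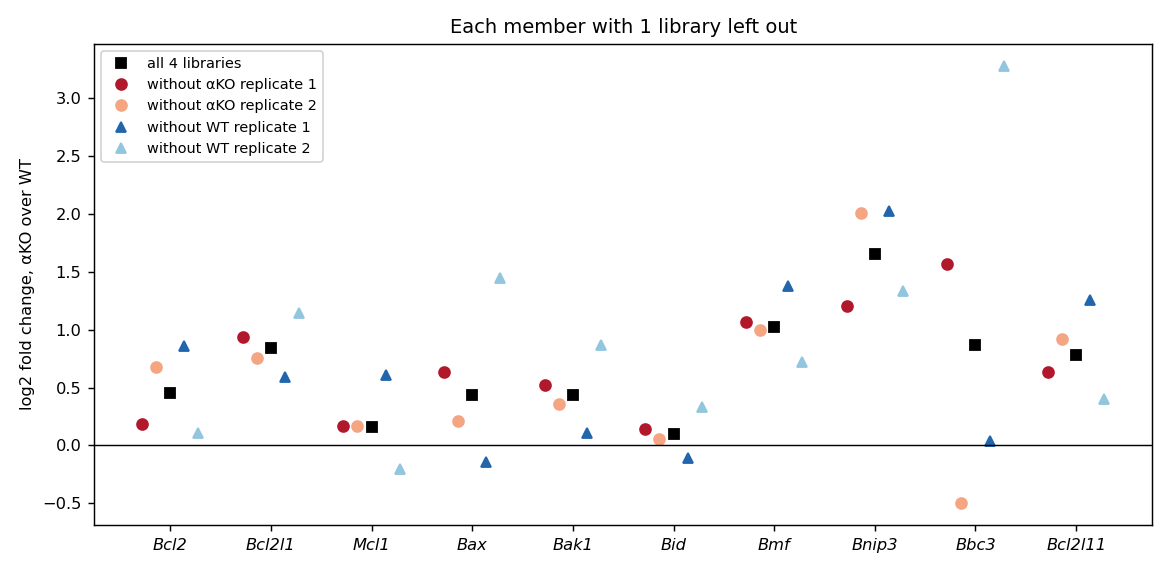
Log2 fold change of αKO over WT of each member with all 4 libraries (black squares) and without 1 library (coloured points, αKO in reds and WT in blues). All 5 points lie above 0 for Bcl2, Bcl2l1, Bak1, Bmf, Bnip3 and Bcl2l11, and the points of Bbc3 run from -0.50 to 3.28.

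The replicates of each genotype differed with GC content, the share of G and C in the transcript. On the log2 scale, WT replicate 1 over WT replicate 2 ran from -3.25 for Bbc3 (65.2% GC) and -1.65 for Bax (63.6% GC) to 0.76 for Mcl1 (48.7% GC) and 0.79 for Bcl2l11 (48.0% GC). The same ratio of the αKO replicates ran from -2.07 for Bbc3 to 0.79 for Bnip3, which has the lowest GC content of the members, 41.6%. Spearman's rho of GC content with the ratio was -0.879 between the WT and -0.976 between the αKO replicates over the 10 members, and -0.711 and -0.581 over the 13167 genes with a GC value, which share libraries and are not independent replicates. With the log2 fold change between the genotypes it was -0.115 over the members and 0.216 over all genes.

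**Figure D5:**
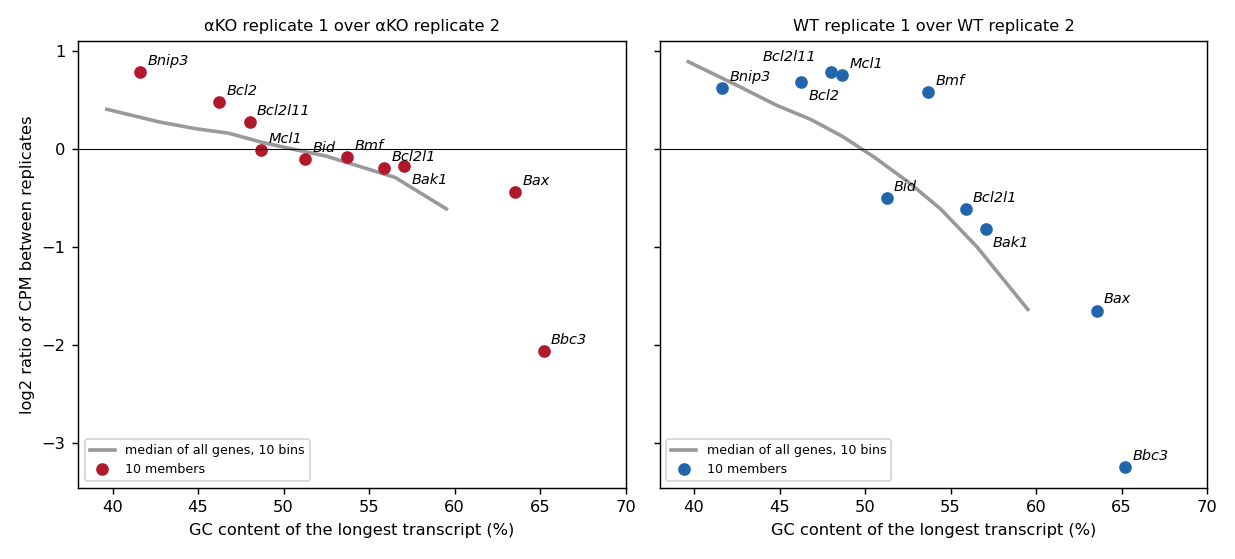
Log2 ratio of CPM of replicate 1 over replicate 2 in αKO (left) and WT cultures (right) against the GC content of the transcript, for the 10 members (points) and the median of all genes in 10 bins of GC content (grey line). The line falls to -1.64 in the highest bin of the WT libraries, and Bax and Bbc3, the members of highest GC content, lie at the low right in both panels.

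With the trend of each library with GC content removed, a step chosen after the values were seen, the log2 fold changes of the members stayed above 0. Bnip3 was at 1.75 (adjusted p = 0.416), Bcl2l1 at 0.65 and Bcl2l11 at 0.83 (adjusted p = 0.433) in edgeR's test, and these 3 members were higher at an unadjusted p under 0.05, beside 4.35% of all genes in that fit, in which 1464 genes were under that p in either direction. Bmf was at 0.82, and Bax and Bak1 were both at 0.24. Bbc3 stayed at 0.87.

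Of the 15 other relatives of the family, 10 could be tested, and 4 had a log2 fold change above 0 and 6 below, with a median of -0.09 and none at an unadjusted p under 0.05. Pmaip1, which encodes NOXA, the BH3-only protein that removes MCL1, had 456 and 431 counts in αKO and 706 and 650 counts in WT cultures, with a log2 fold change of -0.57 (95% interval -1.37 to 0.24). Both αKO libraries were lower than either WT library, and the replicates of each genotype were close. The adjusted p over all genes was 0.99 in edgeR's test. There were 1.27 and 1.04 Bcl2l11 transcripts per Pmaip1 transcript in αKO cultures, against 0.560 and 0.342 in WT cultures (TPM over TPM, described with no test). Bcl2l11 was higher and Pmaip1 lower in both αKO libraries than in either WT library. The ratio therefore had to separate the groups and adds nothing to the values of the 2 genes.

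Bad, a BH3-only gene under the control of growth factor signals, had 726 and 1253 counts in αKO and 299 and 1027 counts in WT cultures (log2 fold change 0.62), and Bok, a relative of the pore formers, 373 and 569 in αKO and 345 and 1354 in WT cultures (log2 fold change -0.81). Both had the low WT replicate 1 that Bax and Bbc3 had. The inhibitor Bcl2l2, which encodes BCL-W, was at -0.14, Bcl2l13 at -0.05 and Bcl2l12 at 0.34. Bcl2a1b had 331 and 230 counts in αKO and 182 and 90 in WT cultures (log2 fold change 1.09), Bcl2a1d was at -0.91 and Bcl2a1a at -1.11. These 3 genes for inhibitors of blood cells are near-identical copies, so that their separate values are uncertain. Their longest transcripts share from 69% to 79.5% of their words of 50 bases with each other or with other genes. Bik had at most 11 counts in a library, Hrk at most 2 and Bcl2l14 at most 1, and Bcl2l10 and Bcl2l15 had 0 counts in all libraries.

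Downstream of the pores, 12 of 17 genes of cytochrome c release and caspase activation had a log2 fold change above 0, none at an unadjusted p under 0.05, with a median of 0.14. Casp9, the initiator caspase on the apoptosome, was at 0.56, whereas the channel gene Vdac3 was the lowest at -0.26. Of the 9 inhibitor of apoptosis genes, 8 were above 0, with a median of 0.20, from -0.12 for Birc6 to 0.58 for Naip6, none under an unadjusted p of 0.05. The regulators of the family, of which 22 of 23 could be tested, had a median of -0.09, with 9 above and 13 below 0 and none under an unadjusted p of 0.05. Stat5b, a transcription factor that induces Bcl2l1, was the highest at 0.81, and Foxo1 the lowest.

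Some members share sequence or position with other genes. Words of 50 bases were taken from the longest transcript of each gene. Bnip3 shared 21.9% of its words with 4 other genes, and Bax 13.8% with the overlapping gene Gm45808 on its own strand. Bcl2l1, Mcl1, Bak1, Bid, Bmf and Bbc3 shared none. The relative Bnip3l shared 23.4% with Bnip3l-ps. On the other strand, Bid overlaps Bcl2l13, which had 1478 and 1526 counts in αKO and 1638 and 1567 counts in WT cultures, and Bak1 overlaps Ggnbp1, which had 8 to 38 counts. Whether counting used the strand is not given in the sources used here, so that reads of such pairs may not be told apart.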

How the data were processed

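RNA of osteocyte-enriched femoral cultures was sequenced on an Illumina NextSeq. Per the labels, the authors used Trimmomatic 0.35, the mm10 genome and HTSeq 0.9.1. The aligner, gene annotation and strand setting are not given in the sources used here. The deposited count table holds raw counts per gene, and the authors also deposited TPM with fixed gene lengths. Their normalized counts, fold changes and p-values were not used.

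The counts were fitted in R 4.3.3 with edgeR 4.0.16: filterByExpr (minimum count 10), TMM, genotype as the only term, glmQLFTest and Benjamini-Hochberg adjustment over 13571 genes. CPM are scaled by TMM. Standard errors come from the F statistic and 95% intervals from the t distribution. Alternatives were library sizes or RLE factors, no filter, DESeq2 1.42.0, the likelihood ratio test, limma 3.58.1 (voom, and log2 of TPM plus 1 or 0.1), leaving out each library, a replicate block and, added after the values were seen, a GC offset (a spline of 6 degrees of freedom per library). The main edgeR fit was tested on simulated counts, with the same dispersion for all genes and no trend with GC content. The alternatives were not tested in this way.

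All 10 members are given. Other lists are given by counts and medians, with names for up to 3 genes of smallest unadjusted p under 0.05, the relatives, and the extremes of lists without such genes. Trp53, Hif1a, Foxo3, Bhlhe40, Vegfa and Adm were named after their values were seen, and 1 gene that the rule names is not reported here. Members and lists were chosen with earlier results of these data known. Counts of 0 and their limit cover counting error only.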

Additional observations from a re-analysis of the deposited data

How the results depend on the processing

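The quasi-likelihood test of edgeR called 0 genes at an adjusted p of 0.05 (732 at an unadjusted p under 0.05), against 50 with DESeq2 and 28 with edgeR's likelihood ratio test, neither with a member, and 1 to 806 with 1 library left out (806 without WT replicate 1, 678 without WT replicate 2). With the replicate block, 1 gene passed and 1501 were under an unadjusted p of 0.05, and Bnip3 was at 1.63 (adjusted p = 0.109). Deviations of same-numbered libraries correlated at 0.487, which with 2 pairs shows only a shared number. The median of the members ran from 0.52 to 0.79.

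With single libraries left out, Mcl1 ran from -0.20 to 0.61, Bid from -0.11 to 0.33, Bnip3l from -0.20 to 0.67, Bcl2l12 from -0.40 to 2.05 and Bcl2l13 from -0.10 to 0.016. Signs turned for Mcl1 (-0.20 without WT replicate 2), Bax (-0.14 without WT replicate 1), Bid (-0.11 without WT replicate 1, and -0.051 in both fits on TPM, in which the median of all genes was -0.11 with a pseudocount of 1 and -0.125 with 0.1), Bbc3 (-0.50 without αKO replicate 2), Bok (0.49) and Bnip3l (-0.20) without WT replicate 2, Bcl2l12 (-0.06 without αKO replicate 2, -0.40 without WT replicate 1) and Bcl2l13 (0.016 without αKO replicate 1). An adjusted p under 0.05 arose without WT replicate 1 for Bnip3 (2.03), Bok (-1.46) and Pdk1 (2.64), and without WT replicate 2 for Bax (1.45), Bbc3 (3.28) and Bad (1.77), with an adjusted p of 0.0119 for Pdk1 and of 0.0246 to 0.0471 for the others. Leaving out a library leaves 1 in its genotype, assumed to vary like the other genotype. The cause was not tested.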
